A study of Mus musculus with 10 samples.

Results

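The CCN genes encode a small family of secreted matricellular proteins, and all 5 members examined here, Ccn1 to Ccn5, were taken by name from tables of 55401 genes of the left ventricle (LV). They were compared between 5 nAAC mice and 5 sham mice, with 1 RNA-seq library per mouse. All 10 mice were WT on a C57BL/6 background and 4 weeks of age. nAAC stands for neonatal ascending aorta constriction, in which the aorta leaving the LV was narrowed surgically in newborns, and sham mice had the operation without the constriction. The study placed females and males in each group at random, and sex was not given for single mice in the sources used here. Its methods describe both purchased C57BL/6 mice and WT mice bred from AHR+/- parents, and do not say which of these were sequenced. The LV was taken as whole tissue, which holds cardiomyocytes, fibroblasts, endothelial cells and other cells together.

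CCN proteins are not structural parts of the matrix. They bind integrins, heparan sulfate proteoglycans, growth factors and matrix proteins, and so tune how a cell responds to its surroundings. Ccn1 (also known as Cyr61) and Ccn2 (Ctgf) are known as rapidly induced targets of the mechanically regulated co-activators YAP and TAZ and of TGF-beta, and Ccn2 is a widely used marker of cardiac fibrosis. Ccn3 (Nov) is known for opposing the action of Ccn2 in several tissues, Ccn4 (Wisp1) and Ccn5 (Wisp2) were named as genes induced by Wnt1, and Ccn5 has been described as antifibrotic in the heart.

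The members share a cysteine-rich IGFBP (insulin-like growth factor binding protein) domain at the start of the mature protein. The stretch of coding sequence that marks this domain is shown for each member because the comparison rests on reads being assigned to related genes. Capitals mark the codons for the glycine and cysteines fixed in the searched pattern, lower case marks the codons free to vary, and all are 5′ to 3′ on the coding strand of GENCODE M21 transcripts (GRCm38).
Ccn1, chr3:145649331-145649354, minus strand, exon 2: GGCTGCggcTGCTGTaaggtcTGC
Ccn2, chr10:24595966-24595989, plus strand, exon 2: GGCTGCggcTGCTGCcgcgtcTGC
Ccn3, chr15:54746265-54746288, plus strand, exon 2: GGCTGCtccTGCTGTccggtgTGC
Ccn4, chr15:66906545-66906568, plus strand, exon 2: GGCTGTgaaTGCTGTaagataTGT
Ccn5, chr2:163825225-163825248, plus strand, exon 3: GGCTGTggcTGCTGTcgagtgTGT
Between 14 of the 24 bases (Ccn2 and Ccn4) and 20 (Ccn1 and Ccn2) were identical in a pair. Over the aligned coding sequence, identity ran from 56.2% for Ccn3 and Ccn4 to 62.75% for Ccn2 and Ccn3. The coding sequences held 379 codons in Ccn1, 348 in Ccn2, 354 in Ccn3, 367 in Ccn4 and 251 in Ccn5, the shortest, which is known to lack the C-terminal cystine-knot domain of the others.

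Expression was read as the deposited FPKM (fragments per kilobase, scaled to the sequenced total), a level corrected for gene length, so that genes can be set side by side. It leaves differences in RNA composition between mice uncorrected. Differences were fitted with limma on log2(FPKM + 1) over the 11867 genes that averaged 1 FPKM or more. A fold change on that scale understates the change of low genes. A gene was called a DEG where the adjusted p was under 0.05 and the log2 FC exceeded 1 in size. Depth was estimated at 4.86 to 6.82 gigabases in nAAC and 5.06 to 5.24 in sham libraries. Mitochondrial genes held a median of 36.1% of the TPM in nAAC and 46.5% in sham mice, and 11889 to 12455 genes reached 1 FPKM in nAAC against 11182 to 11721 in sham mice, without overlap. nAAC replicate 1 was the deepest, and the second principal component set sham replicate 4 apart. Over the genes tested, the log2 FC had a median of 0.22, and scaling libraries by the median ratio of their genes brought it to -0.00. In bulk tissue, fewer cells of a type and less RNA per cell cannot be told apart.

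Of the 5 members, 4 passed the filter and 3 of them, Ccn1, Ccn2 and Ccn5, were DEGs that rose in nAAC mice, where 5.01% of all genes tested were DEGs that rose and 0.893% were DEGs that fell. With median-ratio scaling the balance over all genes was 371 DEGs that rose, or 3.13%, against 206 that fell, in place of 595 and 106. Ccn2 and Ccn5 rose by over 15 times in mean FPKM and Ccn1 by 3.50 times. Ccn3 did not pass the test, and Ccn4 lay under the filter. The values in every mouse are given next, in the order of replicates 1 to 5.

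Ccn2 (ENSMUSG00000019997), the connective tissue growth factor, is on the plus strand of chromosome 10 (GRCm38), from 24595442 to 24598683. Its FPKM was 450.5, 182.9, 341.6, 265.6 and 198.2 in nAAC mice and 15.6, 16.1, 17.7, 20.7 and 23.9 in sham mice. The groups did not overlap, and the lowest nAAC mouse held 7.66 times the FPKM of the highest sham mouse. Groups that do not overlap, with every nAAC mouse above every sham mouse, were found in 18.9% of all genes tested, and groups apart in either direction in 22.3%. The mean FPKM was 288 ± 110.6 (SD, n = 5) against 18.8 ± 3.45 (SD, n = 5). The log2 FC was 3.80 (SE 0.23, 95% interval 3.30 to 4.30, adjusted p = 2.16e-07 from limma), which ranked Ccn2 9th of the genes tested by log2 FC. By mean FPKM it was the 1987th gene in sham mice and the 174th in nAAC mice. Gm15270, a noncoding gene on the opposite strand, overlaps Ccn2. It reached at most 3.32 FPKM in any mouse, and whether strand was used in the quantification is not given in the sources used here.

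Ccn1 (ENSMUSG00000028195), the integrin-binding angiogenic member, is on the minus strand of chromosome 3, from 145646976 to 145649981. Its FPKM was 36.7, 24.7, 33.2, 25.8 and 33.7 in nAAC mice and 8.87, 6.52, 6.87, 8.52 and 13.3 in sham mice. The groups did not overlap here either, although the margin was narrower, with the lowest nAAC mouse at 1.86 times the highest sham mouse. The mean FPKM was 30.8 ± 5.26 (SD, n = 5) against 8.81 ± 2.69 (SD, n = 5), and the log2 FC was 1.72 (SE 0.18, 95% interval 1.33 to 2.11, adjusted p = 1.45e-05 from limma). The call of Ccn1 as a change of more than 1 on the log2 scale was lost when the fit tested against that size directly, where the adjusted p was 0.0537.

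Ccn5 (ENSMUSG00000027656), the short member without the cystine knot, is on the plus strand of chromosome 2, from 163820861 to 163833146. Its FPKM was 35.1, 30.5, 39.1, 35.6 and 22.4 in nAAC mice and 1.31, 1.04, 1.23, 2.45 and 2.83 in sham mice. Every nAAC mouse stood far above every sham mouse, and the lowest nAAC value was 7.91 times the highest sham value. The mean FPKM was 32.5 ± 6.46 (SD, n = 5) against 1.77 ± 0.808 (SD, n = 5), a ratio of 18.4, and the log2 FC was 3.62 (SE 0.20, 95% interval 3.19 to 4.05, adjusted p = 1.31e-07 from limma). Its rank by mean FPKM moved from 9860th in sham mice to 1359th in nAAC mice. In sham mice its FPKM was below that of Ccn1 in every mouse, and in nAAC mice the ratio of Ccn5 to Ccn1 ran from 0.664 to 1.38.

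Ccn3 (ENSMUSG00000037362), known for restraining proliferation and matrix production, is on the plus strand of chromosome 15, from 54745702 to 54754039. Its FPKM was 0.910, 2.30, 2.84, 2.78 and 2.88 in nAAC mice and 1.30, 1.35, 1.41, 1.31 and 1.34 in sham mice. The sham mice were nearly equal, 4 nAAC mice lay above all of them, and nAAC replicate 1 lay below all of them. The mean FPKM was 2.34 ± 0.833 (SD, n = 5) against 1.34 ± 0.0437 (SD, n = 5). The log2 FC of 0.47 (SE 0.18, 95% interval 0.09 to 0.85) had an adjusted p of 0.0576 from limma and did not pass. Without nAAC replicate 1 the log2 FC was 0.66 (adjusted p = 5.78e-04 from limma), which passed the p threshold and stayed under the fold threshold. With median-ratio scaling it was 0.29 (adjusted p = 0.234 from limma), and with TPM in place of FPKM it was 0.65 (adjusted p = 0.0231 from limma), past the p threshold with all mice kept and under the fold threshold.

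Ccn4 (ENSMUSG00000005124), first described as a Wnt1-induced gene and prominent in forming bone, is on the plus strand of chromosome 15, from 66891320 to 66923201. Its FPKM was 1.64, 1.40, 1.06, 0.969 and 1.04 in nAAC mice and 0.914, 0.778, 1.14, 0.578 and 0.217 in sham mice. The groups overlapped at this low level, since sham replicate 3 lay above 3 nAAC mice. Its mean FPKM over the 10 mice was 0.973, so it was not in the fit. The difference in mean log2(FPKM + 1) was 0.38, and a two-sided exact permutation test gave p = 0.0476 before any adjustment. With median-ratio scaling the difference was 0.24 (exact permutation p = 0.262), with TPM it was 0.58 (exact permutation p = 0.0079) and with a pseudocount of 0.1 it was 0.79 (exact permutation p = 0.0476). Ccn6 (ENSMUSG00000062074), the remaining family gene, was listed at 0 in 6 of the 10 mice and reached at most 0.105 FPKM.

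**Figure D1:**
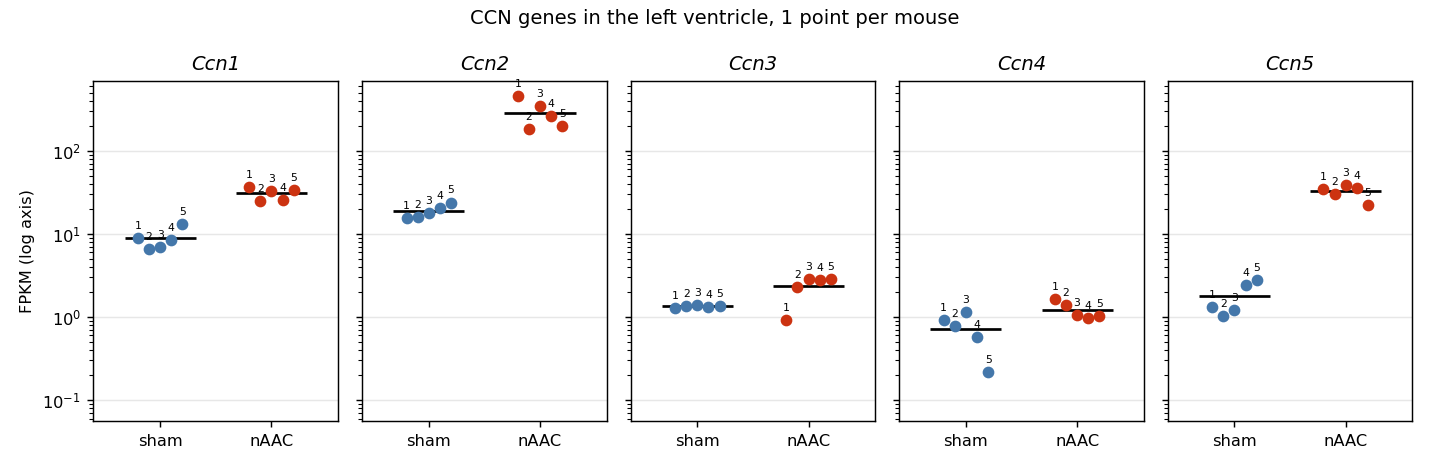
FPKM (log axis) of each CCN gene in sham mice (blue) and nAAC mice (red), with 1 point per mouse, the replicate number above it and a line at the group mean. Ccn1, Ccn2 and Ccn5 do not overlap between groups, nAAC replicate 1 of Ccn3 lies at 0.910 below all sham mice, and Ccn4 overlaps.

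The 3 members that rose kept that call with upper-quartile or median-ratio scaling, with TPM in place of FPKM, with mitochondrial genes left out of the total, with a pseudocount of 0.1 and without any single mouse. With median-ratio scaling the log2 FC was 1.46 for Ccn1, 3.53 for Ccn2 and 3.40 for Ccn5. Xist, the RNA of the inactive X chromosome that is high in females, was unevenly spread over the groups. Its FPKM was 17.2, 0.023, 14.8, 16.6 and 17.9 in nAAC mice and 0, 0.017, 0.0041, 3.70 and 10.6 in sham mice. With Xist as a covariate the log2 FC was 1.43 for Ccn1, 3.46 for Ccn2 and 3.37 for Ccn5. nAAC replicate 2, the nAAC mouse without Xist, lay above sham replicates 1 to 3, which also lacked it, for each of these genes, with Ccn2 at 182.9 against at most 17.7 FPKM. Ccn3 was no DEG in any of these fits.

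**Figure D2:**
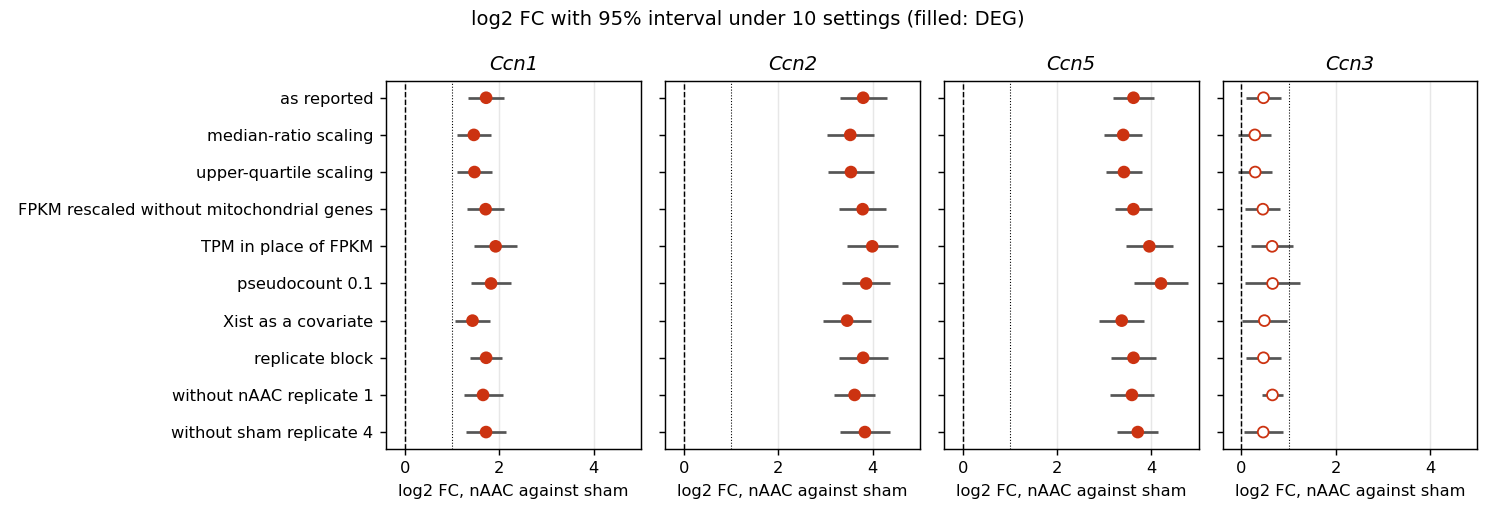
log2 FC with its 95% interval (x axis, nAAC against sham) of the 4 tested members under 10 settings (y axis). Filled points are DEGs, open points are not, the dashed line marks 0 and the dotted line marks 1. Ccn1 lies between 1.43 and 1.92, Ccn2 between 3.46 and 3.99, Ccn5 between 3.37 and 4.20 and Ccn3 below 1 throughout.

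The summed FPKM of the 5 members was 524.9, 241.7, 417.7, 330.8 and 258.2 in nAAC mice and 28.0, 25.8, 28.4, 33.6 and 41.5 in sham mice. The groups did not overlap, and most of the sum was Ccn2 in every mouse. Ccn2 made up 75.7% to 85.8% of it in nAAC mice and 55.8% to 62.5% in sham mice. The share of Ccn1 ran the other way, at 6.98% to 13.1% in nAAC mice against 24.2% to 32.0% in sham mice, although its FPKM was higher in nAAC mice. Ccn5 held 6.70% to 12.6% against 4.03% to 7.30%, so its shares overlapped. Ccn3 held at most 1.12% in nAAC mice against at least 3.23% in sham mice.

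**Figure D3:**
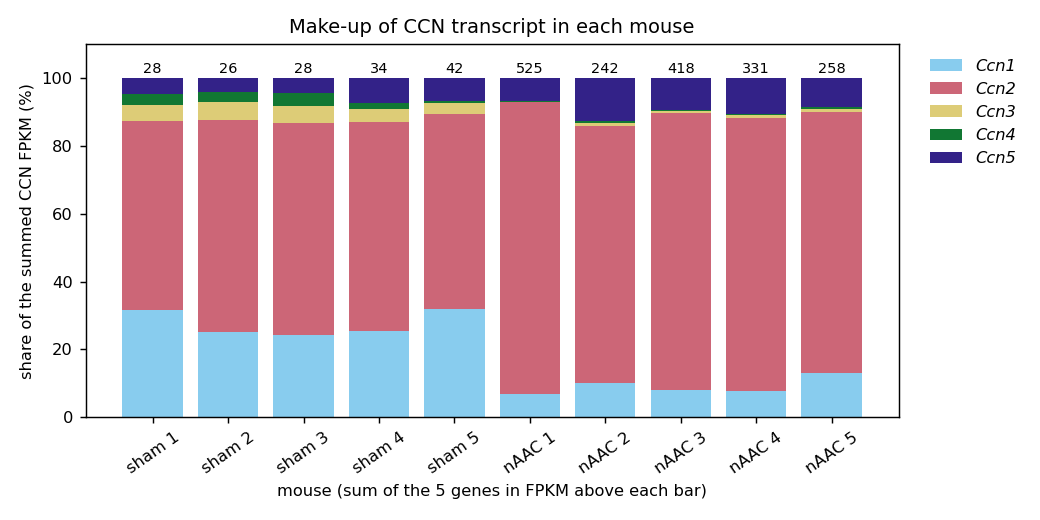
Share of the summed FPKM of the 5 CCN genes (y axis, %) held by each gene in each mouse (x axis), with the sum in FPKM above the bar. Ccn2 takes at least 75.7% in each nAAC mouse and at most 62.5% in each sham mouse.

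Whether the members changed by different amounts was tested on the within-mouse difference of log2(FPKM + 1) for all 10 pairs, by two-sided exact permutation tests adjusted over the pairs. The smallest p these tests allow is 0.0079. Ccn2 rose more than Ccn1, with Ccn1 minus Ccn2 at -2.08 (95% interval -2.54 to -1.50, adjusted exact permutation p = 0.0113). Ccn5 also rose more than Ccn1, with Ccn1 minus Ccn5 at -1.90 (95% interval -2.32 to -1.36, adjusted exact permutation p = 0.0113). Ccn2 and Ccn5 were not told apart, with a difference of 0.18 (95% interval -0.24 to 0.60, adjusted exact permutation p = 0.459). That interval reaches 0.60 towards a larger rise of Ccn2 and -0.24 towards a larger rise of Ccn5. With a pseudocount of 0.1 the difference was -0.34 (adjusted exact permutation p = 0.247), so its sign depended on the pseudocount.

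Ccn3 and Ccn4 stood below the other members in these differences. Ccn1 exceeded Ccn3 by 1.25 (95% interval 0.58 to 2.02, adjusted exact permutation p = 0.0113) and Ccn4 by 1.34 (0.54 to 1.96, adjusted exact permutation p = 0.0198). The second of these rested on the pseudocount, since with 0.1 it was 1.03 (adjusted exact permutation p = 0.119). Ccn2 exceeded Ccn3 by 3.33 and Ccn4 by 3.42, and Ccn3 minus Ccn5 was -3.15 and Ccn4 minus Ccn5 -3.24, each with an adjusted exact permutation p of 0.0113. Ccn3 and Ccn4 were not told apart, with a difference of 0.09 (95% interval -0.66 to 0.68).

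**Figure D4:**
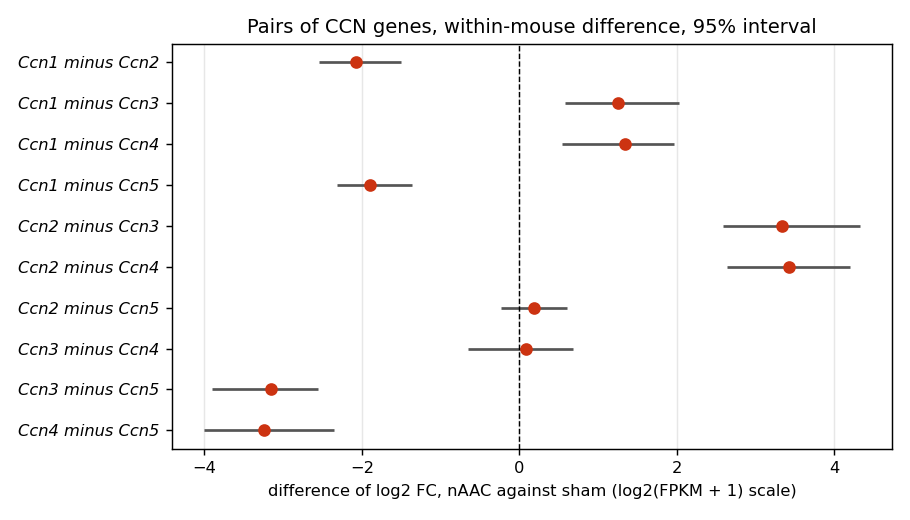
Difference between the log2 FCs of each pair of CCN genes (x axis, log2(FPKM + 1) scale) with its 95% interval from inverting the exact permutation test, for the 10 pairs (y axis). The intervals of Ccn2 minus Ccn5 (0.18) and Ccn3 minus Ccn4 (0.09) include 0, and the other 8 do not.

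Mice within a group did not keep the same order for every member. nAAC replicate 1 had the highest FPKM of its group for Ccn1, Ccn2 and Ccn4 and the lowest for Ccn3. Sham replicate 5 had the highest of its group for Ccn1, Ccn2 and Ccn5 and the lowest for Ccn4. The coefficient of variation of FPKM in nAAC mice was 38.4% for Ccn2 and 17.1% for Ccn1, and in sham mice it was 18.3% and 30.6%.

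Because CCN genes are transcribed in fibroblasts among other cells, each member was also read against markers of cell types. All 9 fibroblast markers were tested, and none was at 0 in every mouse. Of the 9, 5 passed the adjusted p upward and 1 downward, where 27.1% and 4.6% of all genes tested did. Of these, Mfap5 was a DEG that rose (log2 FC 2.49) and Scara5 a DEG that fell (log2 FC -1.80). Their summed FPKM was 465.8 to 767 in nAAC and 389 to 419 in sham mice, without overlap. On average the markers were 0.49 higher in nAAC mice on the log2(FPKM + 1) scale. With median-ratio scaling 2 of the 9 passed the adjusted p upward and 1 downward. Their median log2 FC was then 0.21, in place of 0.47.

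Relative to the mean of the fibroblast markers in the same mouse, Ccn2 was 3.31 higher in nAAC mice, Ccn5 3.13 and Ccn1 1.23, each without overlap of the groups and with an exact permutation p of 0.0132 adjusted over the 5 members. For Ccn3 and Ccn4 the differences were -0.02 and -0.11, each with an adjusted exact permutation p of 0.857. The mean of 12 cardiomyocyte markers differed by -0.07 and held moves in both directions. Actc1 and Actn2 passed the adjusted p upward, Tnni3, Atp2a2 and Pln passed it downward, and 7 did not pass. Against that mean, the differences were 3.87 for Ccn2, 3.69 for Ccn5, 1.79 for Ccn1 and 0.54 for Ccn3 (exact permutation p = 0.0298, adjusted). Against 8 endothelial markers they were 3.61, 3.43, 1.53 and 0.28.

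Some markers of other cells also moved with the groups. Among 8 smooth muscle and pericyte markers, Tagln (log2 FC 1.54), Myh11 (1.25) and Cnn1 (1.17) were DEGs that rose. Cnn1 averaged 0.881 FPKM in sham and 3.21 in nAAC mice, and passed the filter only through its nAAC values. Of the 8, 5 passed the adjusted p upward, where 27.1% of all genes tested did. The other 3 did not pass, namely Rgs5 (-0.0024), Kcnj8 (-0.0026) and Abcc9 (-0.53). With median-ratio scaling Abcc9 passed downward (-0.80, adjusted p = 0.0184 from limma). The summed FPKM was 292 to 424 in nAAC and 200 to 332 in sham mice, with overlap. Of 5 aortic and valve markers 4 were tested. Prg4 (1.80) and Eln (1.64) were DEGs that rose, as were 5.01% of all genes tested. Chad (0.72) and Cytl1 (-0.25) did not pass. The sums were 53.9 to 104 in nAAC against 25.6 to 41.0 FPKM in sham mice, of which Eln averaged 56.4 and 17.2. Of the chondrocyte and osteoblast markers, 1 of 6 was high enough to test, Sox9 (1.32), and Bglap was at 0 in every mouse. Sox9 averaged 0.377 FPKM in sham and 2.45 in nAAC mice, so it passed the filter only through its nAAC values. No cardiomyocyte, macrophage, mesothelial, atrial, endothelial or erythroid marker was a DEG, although atrial markers reached 231 FPKM in nAAC replicate 3 against at most 47.9 in sham mice. With median-ratio scaling 3 of 12 cardiomyocyte markers were DEGs that fell. The part of these cells in the rise of the CCN genes was not tested.

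The promoter of Ccn1, a member that rose, is shown because the study concerns AHR, a receptor that binds DNA at the dioxin response element, and because YAP acts on Ccn1 through TEAD. The 250 bases before its start, from RefSeq GRCm38.p6, chr3:145649986-145650235, minus strand, are printed 5′ to 3′ with found motifs in capitals.
Ccn1 promoter: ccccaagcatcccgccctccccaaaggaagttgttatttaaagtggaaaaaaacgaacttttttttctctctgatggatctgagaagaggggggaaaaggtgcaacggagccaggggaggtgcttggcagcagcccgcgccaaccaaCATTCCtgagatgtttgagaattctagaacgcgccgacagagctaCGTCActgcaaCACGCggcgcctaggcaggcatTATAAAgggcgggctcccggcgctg
The first capitals from the left are CATTCC, a motif of TEAD, the DNA-binding partner of YAP, at -103. The next are the core of the cAMP response element, TGACG on the other strand, at -58. They are followed by the core of the dioxin response element, GCGTG on the other strand, at -47. The last are TATAAA, the letters searched as TATA box, at -25. Each position is that of the first base of the match on the strand shown, counted back from the start of the gene. Both strands were searched, and no motif overlapped another. Of 32851 promoters of the same length, 12.6% held the TEAD motif, 17.8% the cAMP response core, 28.2% the dioxin response core and 12.4% the TATA box. The SMAD element CAGAC was not in this window and was in 42.2% of promoters. The AP-1 site TGANTCA and the CArG box were not in it either, and were in 6.75% and 1.47% of promoters. A promoter was matched for 1 of the 5 members, and Ccn2, Ccn3, Ccn4 and Ccn5 were not matched.

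The genes around the family were taken as lists and read beside all genes tested, of which 5.91% were DEGs, 27.1% passed the adjusted p upward and 4.6% downward. Among the inducers of CCN genes, Tgfb2 was the DEG with the largest log2 FC (2.17), at 11.4 ± 2.74 FPKM in nAAC mice and 1.71 ± 0.255 in sham mice (SD, n = 5 each). Tgfb3 (1.34) and Tgfb1 (1.01) were also DEGs that rose, but with median-ratio scaling Tgfb1 was at 0.75 and no longer a DEG. Of the 9 inducers tested, 7 passed the adjusted p upward and 1, the angiotensin II receptor Agtr1a, downward (log2 FC -0.59), with a median of 0.73. With median-ratio scaling 4 passed upward and 2 were DEGs that rose, where 3.13% of all genes tested were DEGs that rose. The share of all genes passing upward was not computed at that scaling.

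Among 19 tested YAP and TEAD target genes other than the CCN genes, 3 were DEGs and all rose. Ankrd1, the cardiac stress gene and a standard YAP target, went from 143.6 ± 81.1 FPKM in sham to 1756 ± 393 in nAAC mice (SD, n = 5 each, log2 FC 3.72, adjusted p = 1.28e-06 from limma). The others were Tgfb2 and the receptor tyrosine kinase Axl (1.17), which was at 0.90 and no longer a DEG with median-ratio scaling. Of the 19, 9 passed the adjusted p upward and 10 did not pass, and the median log2 FC of 0.46 (0.22 with median-ratio scaling) lay well under the values of Ccn1, Ccn2 and Ccn5. With median-ratio scaling 7 passed upward and 1, F3, downward (-0.38, adjusted p = 0.0368 from limma). Of the 10 TEAD factors and co-activators, the serum response factor Srf was a DEG just past the fold threshold, at 36.1 ± 5.25 FPKM in nAAC and 17.8 ± 4.51 in sham mice (SD, n = 5 each). Of the 10, 5 passed the adjusted p upward and 5 did not pass. The difference of Tead1 was 0.93 with an adjusted p of 0.0973 from limma. Its FPKM ran from 1.81 to 15.6 in sham mice, against 19.7 to 22.9 in nAAC mice. The sham mean of 12.3 ± 5.91 (SD, n = 5) lay near the top of that range, so the lowest value was not typical of sham mice. Every nAAC mouse thus lay above every sham mouse, as in 18.9% of all genes tested. Mrtfa, a co-activator of SRF, had a log2 FC of 0.59. With median-ratio scaling Srf was no longer a DEG.

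Of the 9 lists, the TGF-beta target genes held the largest share of DEGs, with all 14 past the adjusted p upward and 10 of them DEGs, at a median log2 FC of 1.78 (1.51 with median-ratio scaling). Ltbp2, which encodes a latent TGF-beta binding protein, went from 0.203 ± 0.0722 FPKM in sham to 15.9 ± 7.20 in nAAC mice (SD, n = 5 each, log2 FC 3.72). Comp, the cartilage oligomeric matrix protein, went from 0.901 ± 0.405 to 24.4 ± 10.2 FPKM (log2 FC 3.67), and Postn, the matricellular protein of activated fibroblasts, had a log2 FC of 3.78. On this scale Ccn2 (3.80) and Ccn5 (3.62) were close to these 3 genes and Ccn1 near the median of the list. As a ratio of mean FPKM with no pseudocount, Ltbp2 rose 78.2 times and Comp 27.1 times, above the 18.4 of Ccn5 and the 15.3 of Ccn2, and Postn 14.9 times. Ltbp2 and Comp averaged under 1 FPKM in sham mice and passed the filter only through their nAAC values. The share of DEGs in this list therefore partly reflects the filter.

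The genes of proteins that bind CCN members were read in a pair of lists. Among 11 tested receptors, Lrp1 (log2 FC 1.69), Itga5 (1.21) and Itgb5 (1.10) were DEGs that rose, 6 passed the adjusted p upward and 5 did not pass, with a median of 0.39. Lrp1, an endocytic receptor that takes up Ccn2, went from 5.25 ± 0.992 to 19.1 ± 2.93 FPKM (SD, n = 5 each). With median-ratio scaling, where 4.86% of all genes tested were DEGs, 1 receptor was a DEG. At that scaling 3 receptors passed the adjusted p upward and 1, Sdc4, downward (-0.47, adjusted p = 0.0074 from limma). Of 11 tested binding partners in the matrix, 10 passed the adjusted p upward and 5 were DEGs, namely Bgn (2.48), Fn1 (2.01), Hspg2 (1.08), Bmp4 (1.07) and Tgfb1. Bgn encodes biglycan, a small proteoglycan, and rose from 55.3 ± 8.28 to 316.4 ± 72.6 FPKM. With median-ratio scaling 2 of them were DEGs.

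Other families that share a trait with the CCN genes gave a mixed picture. Of 15 other matricellular genes tested, 8 were DEGs that rose, with Thbs4 at a log2 FC of 4.90 and a ratio of mean FPKM of 62.9, above each CCN gene's values. Thbs4 averaged 0.929 FPKM in sham and 58.4 in nAAC mice, and Spp1, also a DEG that rose, 0.323 and 4.66. Like Comp, Thbs4 and Spp1 passed the filter only through their nAAC values, which the share of DEGs in this list partly reflects. Thbs2 passed the adjusted p downward (log2 FC -0.69), and 3 did not pass. Of 9 other genes with an IGFBP domain, Igfbp7 (log2 FC 2.10), Esm1 (1.68), Igfbp6 (1.51) and Igfbp2 were DEGs that rose, and Htra1 passed the adjusted p downward at -0.40. Igfbp2 was listed at 0 in every sham mouse and at 0.590 to 4.34 FPKM in nAAC mice. Esm1 averaged 0.252 FPKM in sham and 3.03 in nAAC mice. Igfbp2 and Esm1 entered the fit only through their nAAC values, so the share of DEGs in this list partly reflects the filter. Among 13 immediate early genes tested, which like Ccn1 are induced quickly by growth factors, 5 were DEGs that rose, with Egr3 (1.38), Atf3 (1.37) and Junb (1.20) highest. Egr3 averaged 0.121 FPKM in sham and 1.92 in nAAC mice, and Atf3 0.882 and 4.00. Both were under 1 FPKM on average in sham mice and passed the filter through their nAAC values. As a ratio of mean FPKM, which rests on those low sham values, Egr3 rose 15.8 times and Atf3 4.53 times. Ccn1 rose 3.50 times, so the order of these genes and Ccn1 (log2 FC 1.72) depends on the pseudocount. With median-ratio scaling 2 of the 13 were DEGs. These lists share genes, among them Tgfb1, Tgfb2, Fn1, Postn and Comp.

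**Figure D5:**
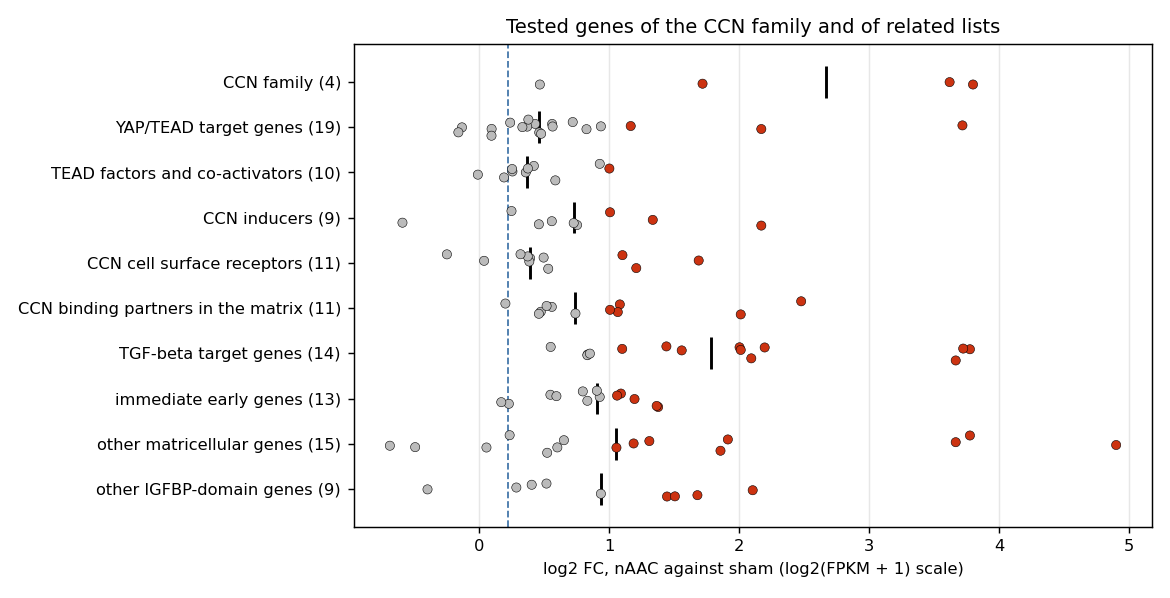
log2 FC (x axis, nAAC against sham) of every tested gene in the CCN family and in 9 related lists (y axis, number tested in parentheses), with DEGs in red, other genes in grey, a black bar at each median and a blue dashed line at the median of all genes, 0.22. Ccn2 and Ccn5 lie among the highest TGF-beta target genes and Ccn3 near the medians of the YAP/TEAD targets and receptors.

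The genes whose profile over the 10 mice was most like that of each member were found by the smallest root mean square difference of log2(FPKM + 1), after each gene was centred on its own mean. For Ccn2 the closest of all genes tested was Ccn5, at 0.297, followed by Comp (0.327) and Ltbp2 (0.329). For Ccn5 the closest were Ccn2 (0.297), Comp (0.311) and Ankrd1 (0.344). For Ccn1 they were Mical2 (0.146), an actin-oxidizing enzyme, Kremen1 (0.174), a receptor of Wnt inhibitors, and Trim47 (0.181). Within 0.5 lay 6 genes for Ccn2, 15 for Ccn5 and 578 for Ccn1. For Ccn3 and Ccn4 the measure singled out little, since 9765 and 9030 genes lay within 0.5. All 10 profiles hold the difference between the groups, so genes of a like log2 FC are close by this measure.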

How the data were processed

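LV RNA of 5 nAAC and 5 sham mice was sequenced with 1 library per mouse, and groups and replicate numbers were taken from the sample labels. The authors deposited for each gene a coverage (mean reads per base), an FPKM (fragments per kilobase, normalized for library depth) and a TPM (FPKM rescaled to a common sum). FPKM was not a fixed multiple of coverage within a library. The most frequent ratio, held by 15.1% to 16.6% of genes, gave the depth estimate. The submitters' processing notes name the build mm10. The aligner, quantifier and strand setting are not given in the sources used here. Rows sharing a gene ID were summed. Because the files hold no counts, limma 3.58.1 (R 4.3.3) with an empirical Bayes trend was fitted to log2(FPKM + 1) for the 11867 genes averaging 1 FPKM or more, with Benjamini-Hochberg adjustment over all of them, all 10 libraries and no covariate. A DEG needed an adjusted p under 0.05 and a log2 FC over 1 in size. Members outside the fit, pairs of members and members relative to markers were compared by two-sided exact permutation tests over 252 splits. The tests were checked on simulated data. The limma p values set the difference between groups against the spread between these mice, moderated over all genes tested. The permutation p values rest on the splits of these mice alone. The number of fragments is unknown, so no counting error was attached, and deposited coverage ran from 794 to 2574 reads per base for Ccn2 in nAAC mice and from 0.646 to 3.52 for Ccn4 in sham mice. The study's thresholds were applied in both directions.

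The members and lists were chosen with earlier results of these data known. Genes named are the members, Ccn6, from each list the 3 tested genes of largest absolute log2 FC and any gene needed for a count of 5 or fewer, and the 3 genes most like each member. Likeness over 10 mice is a description. Alternatives were scaling by median ratio or upper quartile, TPM, removal of mitochondrial genes, a pseudocount of 0.1, no filter, a replicate block, Xist as a covariate, a test against a log2 FC of 1, other marker lists and leaving out each mouse. After the data were seen, 3 were added, namely the lists under median-ratio scaling, the removal of nAAC replicate 1 with sham replicate 4, and a ratio to the summed fibroblast FPKM. IGFBP signatures came from GENCODE M21 and the promoter from RefSeq GRCm38.p6.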

Additional observations from a re-analysis of the deposited data

Results flagged for a closer look

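Of 32 groups of 5 values examined, 2 held a mouse set far from the others, and about 1 in 20 groups is expected to do so by chance. For Ccn3 on the log2(FPKM + 1) scale, nAAC replicate 1 was lowest, and its gap to the next nAAC mouse was 0.772 of the range of the group, above the critical value of 0.71. For the difference Ccn1 minus Ccn3 the same mouse was highest, with a gap of 0.774 of the range. Both rest on the same low Ccn3 value of 0.910 FPKM.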

How the results depend on the processing

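Of 316 values recomputed under alternatives, 281 kept their direction and their call or stayed near the reported count. A count of 2 member DEGs in place of 3 was taken as near. Ccn3 was taken as kept throughout because it was never a DEG. Its adjusted p from limma nonetheless fell under 0.05 with TPM (0.0231), without nAAC replicate 1 (5.78e-04), and without that mouse and sham replicate 4 (7.78e-04). The number of DEGs among the members was 3 in every fit except the test against a log2 FC of 1, where it was 2 and Ccn1 (1.72, adjusted p = 0.0537) was lost. Leaving out each mouse gave log2 FCs of 1.63 to 1.86 for Ccn1, 3.62 to 3.94 for Ccn2, 0.40 to 0.66 for Ccn3 and 3.52 to 3.75 for Ccn5. The unadjusted call of Ccn4 was lost with median-ratio scaling (0.24), upper-quartile scaling (0.24), without mitochondrial genes (0.37), without a filter (0.38, limma adjusted p = 0.159) and without nAAC replicate 1 and sham replicate 4 (0.29), and without single mice it ran from 0.26 to 0.46, with the call lost in 8 of 10 cases (exact permutation p from 0.0635 to 0.0952) and kept without nAAC replicate 4 or sham replicate 3. It was kept with TPM (0.58) and with a pseudocount of 0.1 (0.79). With a pseudocount of 0.1, Ccn1 minus Ccn4 was 1.03 and lost its call, Ccn2 minus Ccn5 turned to -0.34 and Ccn3 minus Ccn4 to -0.13. The last ran from -0.0089 to 0.34 without single mice. Relative to markers, the near-zero differences of Ccn3 and Ccn4 turned to 0.20 and 0.33 with a pseudocount of 0.1, 0.54 and 0.45 against cardiomyocyte markers, 0.28 and 0.19 against endothelial markers and 0.029 and 0.25 against summed fibroblast FPKM. Without single mice they ran from -0.20 to 0.15 and from -0.24 to 0.0021. The cause was not tested. Same-numbered mice did not deviate together (r from -0.32 to 0.19), and no mouse correlated best with its own number. With the replicate block there were 704 DEGs in place of 701, Ccn1 was 1.72, Ccn2 3.80, Ccn3 0.47 (adjusted p = 0.0550) and Ccn5 3.62, and no call of a member changed. Ccn4 has no value with the block, the Xist covariate or the test against 1. The coverage of Ccn4 was 0.646 to 6.30 reads per base, and the part of depth in its spread was not tested.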
